A study of Mus musculus with 12 samples.

Results

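The pericentral genes and Wnt target genes of the mouse liver were described here as 10 genes, *Glul*, *Oat*, *Slc1a2*, *Rhbg*, *Rgn*, *Lgr5*, *Axin2*, *Znrf3*, *Rnf43* and *Tbx3*. They were taken by symbol from a table of raw read counts for 54838 genes, and each symbol matched 1 gene. The table came from RNA sequencing of whole liver of C57BL/6J mice, which per the study's methods were females used at an age between 8 and 14 weeks. All mice were given drinking water for 7 days, either plain or with 25 mM ZnSO4, and all then had 1 intraperitoneal injection, either PBS or 200 µg dexamethasone (Dex), a synthetic glucocorticoid. The livers were collected 2 h later. The 4 groups of 3 mice are called water-PBS (HP, the control), zinc-PBS (ZP), water-Dex (HD) and zinc-Dex (ZD). The labels call the mice of a group replicates and give no cage or litter, so the p-values measure the spread between these livers only. Whole liver holds many cell types, and fewer cells of a type cannot be told apart from less RNA per cell.

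The liver lobule is divided into zones along the blood flow, from the portal vein to the central vein. Endothelial cells around the central vein release Wnt ligands and R-spondin 3, and hepatocytes that receive them stabilize β-catenin, which enters the nucleus and acts with TCF/LEF factors on target genes. Hepatocytes next to the central vein make glutamine from ammonia and glutamate, and *Glul* (glutamine synthetase), *Oat* (ornithine aminotransferase), *Slc1a2* (a glutamate transporter) and *Rhbg* (an ammonium transporter) serve this route. *Rgn* encodes regucalcin, a gluconolactonase. *Axin2* is a target gene and a scaffold of the complex that destroys β-catenin. *Lgr5* encodes a receptor for R-spondins, *Znrf3* and *Rnf43* encode ubiquitin ligases that remove Frizzled receptors from the cell surface, and *Tbx3* encodes a transcription factor.

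On GRCm38 with the GENCODE M21 annotation, *Glul* lies at chr1:153899944-153909723 on the plus strand, *Slc1a2* at chr2:102658659-102790784 (plus), *Rhbg* at chr3:88242874-88254709 (minus), *Tbx3* at chr5:119670669-119684724 (plus), *Oat* at chr7:132557478-132576398 (minus) and *Lgr5* at chr10:115450311-115587780 (minus). Chromosome 11 holds *Znrf3* at chr11:5276324-5444847 (minus), *Rnf43* at chr11:87662722-87735539 (plus) and *Axin2* at chr11:108920349-108950783 (plus). *Rgn* lies at chrX:20549787-20562089 (plus). Of the exonic bases of *Rhbg*, 61.4% are shared on the same strand with the predicted gene *Gm38392*, so the level of *Rhbg* is uncertain. Shorter exonic overlaps on the opposite strand were found for *Glul* (116 bases with *Teddm2*), *Slc1a2* (189 bases with *Gm13872*), *Axin2* (209 bases with *Gm11670*) and *Tbx3* (115 bases with *Tbx3os1*). The strand setting of the counting is not given in the sources used here.

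Promoter windows of RefSeq (GRCm38.p6) were matched for 5 of the 10 genes, in 6 windows. The 250 bases before the start are shown for *Axin2* and *Rnf43*, whose RNA fell together after Dex, and for *Glul*, whose RNA rose. They are printed 5′ to 3′ on the plus strand, from chr11:108920099-108920348 for *Axin2*, chr11:87662837-87663086 for the first of the 2 *Rnf43* windows, which lies inside the annotated gene, and chr1:153899679-153899928 for *Glul*. Capitals mark the hexamer of the glucocorticoid response element, AGAACA, on either strand.
Axin2: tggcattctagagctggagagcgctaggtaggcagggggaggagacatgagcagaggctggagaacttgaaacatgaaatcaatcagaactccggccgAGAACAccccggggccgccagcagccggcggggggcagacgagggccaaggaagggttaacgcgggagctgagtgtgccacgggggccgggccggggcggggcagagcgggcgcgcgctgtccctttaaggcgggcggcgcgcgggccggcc
Rnf43: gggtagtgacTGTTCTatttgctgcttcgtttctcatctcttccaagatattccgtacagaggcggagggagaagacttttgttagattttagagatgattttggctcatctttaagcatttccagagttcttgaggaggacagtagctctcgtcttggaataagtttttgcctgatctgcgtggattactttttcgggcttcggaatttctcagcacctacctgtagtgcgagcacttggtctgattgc
Glul: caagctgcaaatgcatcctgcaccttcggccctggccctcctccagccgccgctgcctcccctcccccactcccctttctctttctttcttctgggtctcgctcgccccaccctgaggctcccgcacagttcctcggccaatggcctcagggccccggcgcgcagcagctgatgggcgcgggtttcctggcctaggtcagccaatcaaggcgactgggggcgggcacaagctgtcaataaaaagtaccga
The hexamer stood 152 bases before the start in *Axin2*, and its reverse complement TGTTCT stood 240 bases before the start in the printed *Rnf43* window. The other *Rnf43* window, which is not printed, and the windows of *Oat* and *Slc1a2* held no hexamer on either strand. The *Glul* window held neither the hexamer nor the TCF/LEF core (CTTTGAA or CTTTGAT on either strand), and the core was in the *Slc1a2* window, as ATCAAAG at 207 bases before the start. Among 32851 windows of this length, 16.1% held the hexamer and 7.48% held the TCF/LEF core. The full element, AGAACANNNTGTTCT, was in 3 windows (0.00913%) and in none of these 6. A match is a description of letters, not a binding site. The windows differed in base composition, with 69.2% G and C in the *Axin2* window, 64.8% in that of *Glul* and 44.4% in that of *Rnf43*.

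Total counts lay between 9091152 and 12303527 per library. The label checks followed the groups, since *Mt1*, a metallothionein gene that zinc induces, had a mean normalized count of 349 ± 122 (SD, n = 3) in water-PBS and 5106 ± 1479 in zinc-PBS, and *Fkbp5*, a glucocorticoid receptor target, had 923 ± 335 in water-PBS and 8014 ± 39.7 in water-Dex. With each injection every zinc liver had more *Mt1* than every water liver, and with each water every Dex liver had more *Fkbp5* than every PBS liver. Dex raised *Mt1* too, to 7558 ± 62.4 in water-Dex, so *Mt1* marks zinc only among livers with the same injection.

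Dex lowered 4 of the 5 Wnt receptor, feedback and transcription factor genes within 2 h, and raised *Glul*. On plain water, 5 of the 10 genes passed the DESeq2 test at an adjusted p under 0.05, 4 of them lower (*Tbx3*, *Rnf43*, *Axin2* and *Lgr5*) and 1 higher (*Glul*). Of all 14221 genes tested, 21.6% passed, 9.91% as lower and 11.7% as higher. The median log2 fold change was -0.24 over the 10 genes and -0.011 over all genes tested. With an absolute log2 fold change above 0.8 also asked, 4 of the 10 passed, against 9.68% of all genes. Zinc moved none of the 10 past the test, with either injection.

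**Figure D1:**
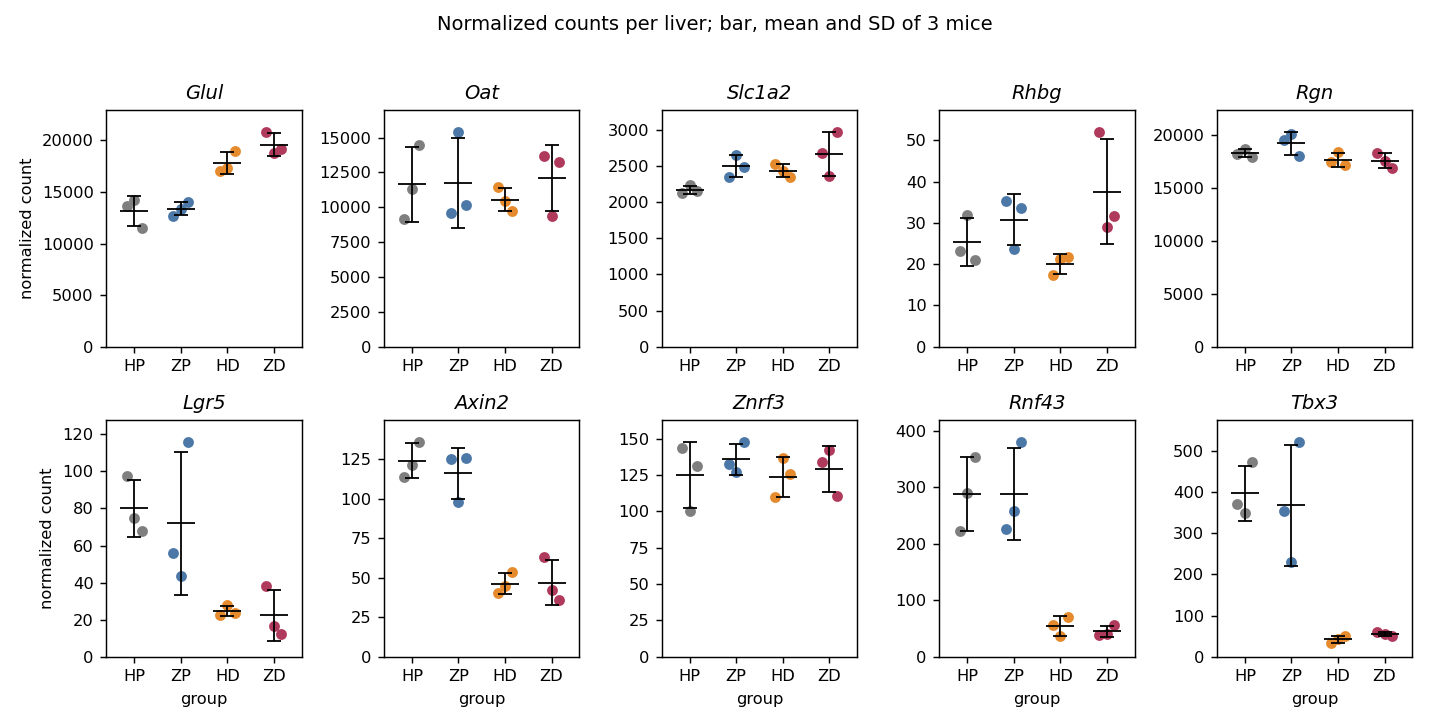
Normalized counts (y axis, from 0, each panel with its own scale) of the 10 genes in the livers of water-PBS (HP), zinc-PBS (ZP), water-Dex (HD) and zinc-Dex (ZD) mice (x axis). Points are livers, and bars are the mean and SD of 3 mice. *Lgr5*, *Axin2*, *Rnf43* and *Tbx3* were lower in all 6 Dex livers than in all 6 PBS livers, and *Glul* was higher.

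*Tbx3* fell furthest. Its normalized counts were 371, 348 and 472 in water-PBS and 32.5, 43.6 and 50.5 in water-Dex. In the mice on zinc water they were 353, 229 and 522 after PBS and 60.8, 54.4 and 50 after Dex. The lowest PBS liver was thus far above the highest Dex liver, and the widest spread was that between the 3 zinc-PBS livers. The log2 fold change by Dex was -3.23 (SE 0.273, adjusted p = 3.6e-30) on plain water, or 9.4-fold lower, and -2.74 (SE 0.267, adjusted p = 6.4e-23) on zinc water. The antisense gene *Tbx3os1*, named after its values were seen, had 35.7, 40 and 39.5 normalized counts in water-PBS and 13.2, 24.5 and 23.7 in water-Dex (log2 fold change -0.91, adjusted p = 0.069).

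*Rnf43* was the next. It had 223, 290 and 354 normalized counts in water-PBS and 56.9, 36.2 and 71.2 in water-Dex. On zinc water the livers had 227, 259 and 381 after PBS and 39.1, 40 and 56.7 after Dex. The groups did not overlap, and the fold change was of the same order with each water. Log2 fold changes were -2.40 (SE 0.265, adjusted p = 7.7e-18), or 5.26-fold lower, on plain water and -2.67 (SE 0.27, adjusted p = 3.6e-21) on zinc water.

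*Znrf3*, which encodes the paralog of the Rnf43 ligase, was not called. Its normalized counts were 144, 100 and 131 in water-PBS, 110, 137 and 126 in water-Dex, 133, 127 and 148 in zinc-PBS and 134, 142 and 111 in zinc-Dex. All 4 groups overlapped. The 95% interval of the log2 fold change by Dex ran from -0.35 to 0.34 on plain water (adjusted p = 0.993) and from -0.42 to 0.27 on zinc water (adjusted p = 0.845), so a fall of the size seen for *Rnf43* lay outside both intervals. Per length, as TPM (the share of all transcripts after division by exonic length), the level of *Rnf43* was above that of *Znrf3* in all 6 PBS livers (8.09 to 13.9 against 3.02 to 4.47) and below it in all 6 Dex livers (1.15 to 2.35 against 2.93 to 3.64).

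*Axin2*, often used as a readout of β-catenin signalling, was at 114, 121 and 136 normalized counts in water-PBS and at 40.6, 44.7 and 53.4 in water-Dex. The zinc-PBS livers had 125, 97.9 and 126, and the zinc-Dex livers had 63, 42.2 and 35.6. Every Dex liver was below every PBS liver. The log2 fold change was -1.42 (SE 0.224, adjusted p = 5.2e-09), or 2.68-fold lower, on plain water and -1.32 (SE 0.223, adjusted p = 8.1e-08) on zinc water.

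*Lgr5* had the lowest level per length of the 10 genes. Normalized counts were 97.7, 74.6 and 68.1 in water-PBS, 22.3, 27.7 and 23.7 in water-Dex, 56, 43.7 and 116 in zinc-PBS and 38, 16.7 and 12.5 in zinc-Dex. Zinc-PBS and zinc-Dex came close to each other at 43.7 and 38, but they did not overlap. The log2 fold change was -1.71 (SE 0.4, adjusted p = 0.000225), or 3.26-fold lower, on plain water and -1.69 (SE 0.405, adjusted p = 0.000344) on zinc water. Without zinc-Dex replicate 1, the highest of its group, the latter was -2.31 (adjusted p = 3.7e-06).

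Of the 5 pericentral enzymes and transporters, 1 passed the test for Dex on each water. That gene was *Glul*, with 13665, 14229 and 11545 normalized counts in water-PBS and 17003, 17313 and 18999 in water-Dex. On zinc water it had 12713, 13391 and 13986 after PBS and 20840, 18736 and 19148 after Dex. Each Dex liver was above each PBS liver, although the change was small beside the falls of *Tbx3*, *Rnf43*, *Axin2* and *Lgr5*. The log2 fold change was 0.43 (SE 0.0919, adjusted p = 3.0e-05), or 1.35-fold higher, on plain water and 0.55 (SE 0.0919, adjusted p = 4.5e-08), or 1.46-fold higher, on zinc water.

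The other 4 did not pass for Dex. *Oat* varied widely between mice of a group, with 9158, 11305 and 14480 normalized counts in water-PBS, 11431, 10463 and 9759 in water-Dex, 9568, 15421 and 10131 in zinc-PBS and 13647, 9343 and 13245 in zinc-Dex. Its interval for Dex was -0.53 to 0.25 on plain water and -0.34 to 0.43 on zinc water, on the log2 scale. Neither interval leaves room for a change as large as that of *Axin2*.

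*Rgn* was the steadiest gene in water-PBS, with 18252, 18733 and 17998 normalized counts there and 17502, 18417 and 17177 in water-Dex. The zinc-PBS livers had 19577, 20165 and 18059 and the zinc-Dex livers 18326, 17603 and 16898. The log2 fold change by Dex was -0.05 (95% interval -0.18 to 0.08, adjusted p = 0.662) on plain water and -0.13 (SE 0.0643, adjusted p = 0.154) on zinc water. On the TPM scale, which divides by the summed level of all genes, *Rgn* was lower in the 6 Dex livers (2201 to 2385) than in the 6 PBS livers (2684 to 3091). Whether the *Rgn* levels of PBS and Dex livers overlap thus depends on the scale. On both scales *Glul* was higher, and *Tbx3*, *Rnf43*, *Axin2* and *Lgr5* were lower, in every Dex liver than in every PBS liver.

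*Rhbg* rested on few reads, between 17 and 48 raw counts per library. It had 23.1, 31.9 and 20.9 normalized counts in water-PBS, 17.3, 21.3 and 21.8 in water-Dex, 35.2, 23.6 and 33.5 in zinc-PBS and 52.1, 28.9 and 31.7 in zinc-Dex. The interval for Dex was wide, from -1.04 to 0.36 on plain water and from -0.34 to 0.92 on zinc water. A change within these intervals was not detectable at this depth.

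*Slc1a2* had 2120, 2236 and 2150 normalized counts in water-PBS, 2522, 2436 and 2347 in water-Dex, 2344, 2657 and 2491 in zinc-PBS and 2685, 2359 and 2967 in zinc-Dex. On this scale the 3 water-PBS livers were the lowest of the 12. On the TPM scale they were not. The values there were 38.5, 40.5 and 40.3 in water-PBS and 40.5, 38.6 and 38.6 in water-Dex. They were 42.6, 49.8 and 45.3 in zinc-PBS and 41.7, 36.3 and 47.3 in zinc-Dex. Against water-PBS, the log2 fold change in DESeq2 was 0.20 in zinc-PBS (SE 0.0916, adjusted p = 0.741), 0.17 in water-Dex (SE 0.0918, adjusted p = 0.205) and 0.30 in zinc-Dex (SE 0.0917, adjusted p = 0.00663). The last passed the test, but not without zinc-Dex replicate 3, the highest liver (log2 fold change 0.22, adjusted p = 0.0862). These 3 comparisons share the water-PBS livers.

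**Figure D2:**
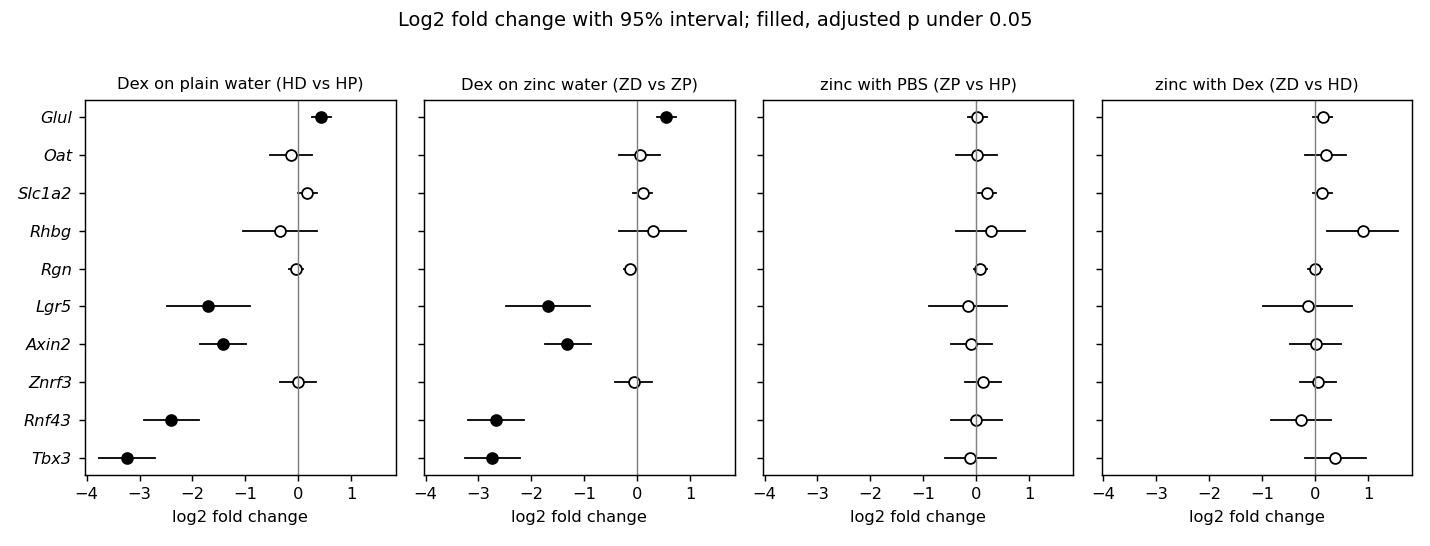
Log2 fold change (x axis) of each of the 10 genes (y axis) for Dex on plain water, Dex on zinc water, zinc with PBS and zinc with Dex. Points are DESeq2 estimates, lines are 95% intervals, and filled points passed at an adjusted p under 0.05. *Glul*, *Lgr5*, *Axin2*, *Rnf43* and *Tbx3* are filled in both Dex panels, and none is filled in the zinc panels.

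The combined treatment was also set against the control. In zinc-Dex against water-PBS, 6 of the 10 genes passed, 4 lower and 2 higher, where 24.4% of all genes passed (11.2% lower, 13.2% higher). They were the 5 genes above and *Slc1a2*. Log2 fold changes were -2.85 for *Tbx3*, -2.67 for *Rnf43*, -1.85 for *Lgr5*, -1.41 for *Axin2* and 0.57 for *Glul*. For Dex on zinc water, zinc-Dex against zinc-PBS, 5 of the 10 passed, 4 lower and 1 higher, against 20.1% of all genes (9.08% lower, 11% higher). This comparison shares no liver with that on plain water, and both share livers with the combined one. Comparing all 6 Dex livers with all 6 PBS livers, 4 of the 10 genes were lower and 1 was higher with no overlap, where 9.36% of 14221 genes were lower and 11.1% were higher in this way.

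The question whether zinc alone or zinc under Dex changes these genes was answered by 2 more comparisons. In zinc-PBS against water-PBS, 0 of the 10 passed in DESeq2 and 0 in edgeR, while 0.341% of all genes passed. An unadjusted p under 0.05 was reached by 1 of the 10, *Slc1a2*, and by 5.74% of all genes. In zinc-Dex against water-Dex, 0 of the 10 passed in either tool, against 1.35% of all genes. Here 1 of the 10, *Rhbg*, and 10.2% of all genes had an unadjusted p under 0.05 (for *Rhbg*, log2 fold change 0.90, 95% interval 0.23 to 1.57, adjusted p = 0.226), with the 3 zinc-Dex livers above the 3 water-Dex livers. For *Tbx3*, *Rnf43*, *Axin2* and *Lgr5* the zinc intervals were wide. With PBS they ran from -0.59 to 0.37 for *Tbx3*, from -0.48 to 0.48 for *Rnf43*, from -0.48 to 0.30 for *Axin2* and from -0.89 to 0.58 for *Lgr5*. With Dex the interval was -0.19 to 0.96 for *Tbx3* and -0.84 to 0.29 for *Rnf43*. Tighter bounds were reached for *Glul*, at -0.16 to 0.20 with PBS and -0.04 to 0.32 with Dex, and for *Rgn*, at -0.05 to 0.20 and -0.13 to 0.12.

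Whether zinc water altered the response to Dex was tested as an interaction. None of the 10 genes passed in DESeq2 or edgeR, and 0.0229% of all genes passed. An unadjusted p under 0.05 was reached by 0 of the 10 and by 1.99% of all genes. The interaction, as the log2 fold change by Dex on zinc water minus that on plain water, was 0.49 for *Tbx3* (95% interval -0.26 to 1.24), -0.27 for *Rnf43* (-1.01 to 0.47), 0.10 for *Axin2* (-0.52 to 0.72), 0.02 for *Lgr5* (-1.10 to 1.13) and 0.12 for *Glul* (-0.14 to 0.37). Each of these had an adjusted p of 0.999. The intervals for *Tbx3*, *Rnf43* and *Lgr5* still hold differences of more than 1 on the log2 scale.

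The levels of the genes were compared per length. In water-PBS, *Rgn* had the highest level, 2745 ± 34.5 TPM (SD, n = 3). *Oat* (1191 ± 295) and *Glul* (951 ± 86.3) followed and overlapped each other. *Slc1a2* was at 39.8 ± 1.11 TPM. *Tbx3* (14.5 ± 2.7) and *Rnf43* (10.6 ± 2.58) overlapped, *Axin2* was at 5.42 ± 0.586, *Znrf3* (3.81 ± 0.7) and *Rhbg* (3.14 ± 0.682) overlapped, and *Lgr5* was lowest at 1.88 ± 0.343. The 4 genes that Dex lowered came from different places in this order and all ended at or below 2.35 TPM in every Dex liver. *Tbx3*, above *Axin2* in all 6 PBS livers (8.52 to 18.8 against 4.38 to 6.08), overlapped it in the Dex livers (1.04 to 1.87 against 1.35 to 2.33).

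**Figure D3:**
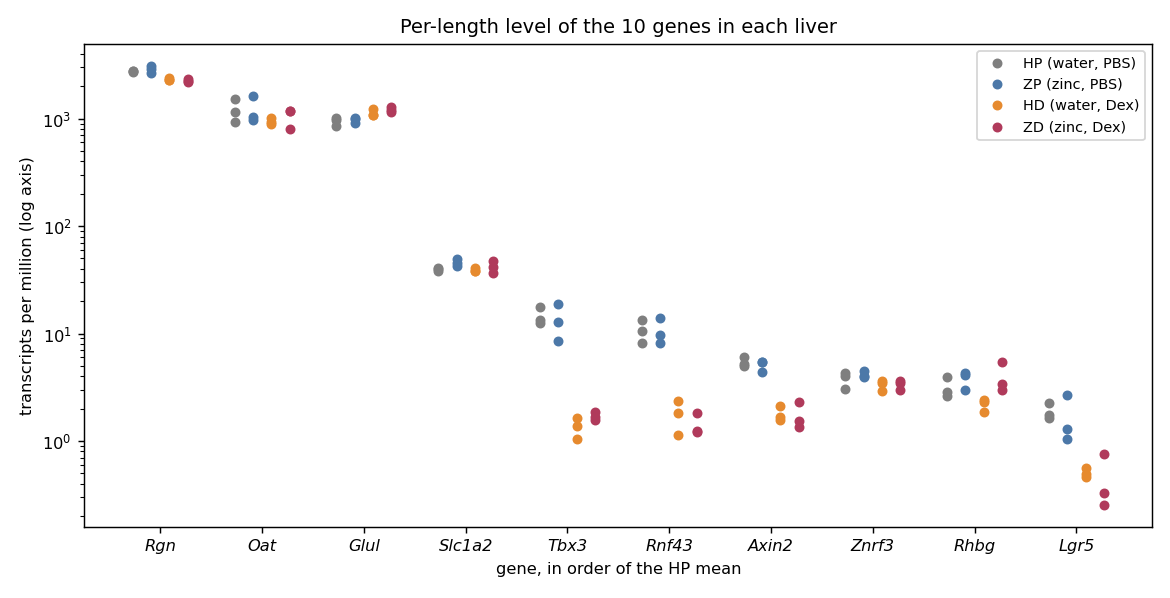
Level of the 10 genes in TPM (y axis, log scale), ordered by their water-PBS mean (x axis). Each point is 1 liver, coloured by group. *Rgn*, *Oat* and *Glul* are at 800 or above in every liver, and *Tbx3*, *Rnf43*, *Axin2* and *Lgr5* drop to at most 2.35 in the Dex livers.

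Other genes of the pathway were taken from lists by role, and the counts below stand beside the 21.6% of all genes that passed for Dex on plain water and the 20.1% on zinc water. A gene without an adjusted p, for its low counts, was not tested. Of 9 other Wnt targets, 7 were tested for Dex on plain water, 3 fell and 1 rose, and the median log2 fold change was -0.67. *Sp5*, a transcription factor gene, had raw counts of 12, 24 and 25 in water-PBS, 3, 1 and 2 in water-Dex, 15, 11 and 29 in zinc-PBS and 1, 2 and 1 in zinc-Dex. All Dex livers were below all PBS livers, with a log2 fold change of -3.34 (95% interval -4.83 to -1.84, adjusted p = 0.000142) on plain water that rests on 1 to 3 reads per Dex library. *Nkd1*, an inhibitor of Dishevelled, went from 71.4, 85.5 and 119 normalized counts to 42.6, 40.4 and 61.3 (log2 fold change -0.93, adjusted p = 0.00133). On zinc water both fell as well, *Sp5* by 3.55 and *Nkd1* by 0.65 on the log2 scale (adjusted p = 0.000492 and 0.0414).

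The remaining targets that passed did not share 1 direction. *Myc*, a proto-oncogene with many inputs besides Wnt, rose, with a log2 fold change of 1.95 (adjusted p = 1.0e-09) on plain water and 1.38 (adjusted p = 6.5e-06) on zinc water. *Tnfrsf19*, which encodes a receptor of the TNF receptor family, had 64.1, 77.4 and 87.9 normalized counts in water-PBS and 25.4, 29.8 and 32.7 in water-Dex, but 74.9, 92.7 and 71.5 in zinc-PBS and 106, 52.2 and 60.6 in zinc-Dex. It fell on plain water (log2 fold change -1.38, adjusted p = 2.4e-05) and was higher in zinc-Dex than in water-Dex (1.32, adjusted p = 0.00182 in DESeq2, while 0 of the 9 passed in edgeR). The interaction of 1.26 did not pass (unadjusted p = 0.00127, adjusted p = 0.999), so the difference between the waters is not shown by the test of the difference.

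Among 10 receptor genes, all tested, 3 rose and 3 fell with Dex on plain water, and the median log2 fold change was -0.01. The co-receptor gene *Lrp6* rose from 1294, 1208 and 1222 to 3283, 3766 and 3720 normalized counts (log2 fold change 1.53, adjusted p = 6.4e-49), while the Frizzled gene *Fzd7* fell from 277, 257 and 357 to 75.1, 73.4 and 75.2 (-1.99, adjusted p = 2.7e-27). The groups were far apart for both. *Lrp5* (0.57) and *Lgr4* (0.38), another receptor for R-spondins, also rose, and *Fzd8* (-0.62) and *Fzd1* (-0.51, named after its values were seen) fell. On zinc water 3 rose and 2 fell, with 1.69 for *Lrp6* and -1.89 for *Fzd7*.

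Of 10 genes for Wnt ligands, R-spondins and their release, 8 were tested and 1 fell with Dex on plain water. This was *Wnt5a*, at 26.3, 15.5 and 20.9 normalized counts in water-PBS and 4.06, 7.44 and 3.96 in water-Dex (log2 fold change -2.02, adjusted p = 0.00249). On zinc water *Wnt5a* (-1.89), *Wnt5b* (-1.01) and *Wnt2* (-0.64) fell and *Porcn* (0.74), whose enzyme adds the lipid that Wnts need for release, rose. *Wnt2*, one of the ligands made by central vein endothelium, had 70.4, 72.8 and 60.4 normalized counts in water-PBS and 57.9, 56.4 and 46.5 in water-Dex, with adjusted p = 0.285. Over both waters, *Wnt2* was lower in all 6 Dex livers (46.5 to 58.9) than in all 6 PBS livers (60.4 to 94.2). Of 14221 genes, 9.36% were lower in this way. For *Rspo3* the values were 84, 68.3 and 71.4 and then 67, 52.1 and 55.4, with adjusted p = 0.275. *Wnt9b*, of the same list and named after its values were seen, had 25.2, 25.5 and 14.3 and then 16.2, 20.2 and 21.8. Its log2 fold change by Dex was -0.17 on plain water (adjusted p = 0.826) and 0.04 on zinc water (adjusted p = 0.967). In zinc-Dex against water-PBS, *Rspo3* passed as lower (means 50.5 and 74.6), as did *Wnt5a*, and *Porcn* passed as higher. There, 11.2% of all genes passed as lower.

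Inside the cell, the list of 12 genes of the cytoplasmic relay included those of the β-catenin destruction complex. Of the 12, 4 rose on plain water and 0 fell. The 4 were *Gsk3b* (0.34), *Apc* (0.32), *Tnks* (0.37) and *Tnks2* (0.31). *Tnks* and *Tnks2*, the tankyrase genes, also rose on zinc water, while *Gsk3b* and *Apc* did not pass there. *Ctnnb1*, the β-catenin gene, named after its values were seen, did not pass, with a 95% interval of -0.05 to 0.18 on plain water. Of 7 nuclear factor genes, 6 were tested. *Bcl9l* (0.61) and *Tcf7l1* (0.78) rose and *Pygo2* (-0.50) fell on plain water, and on zinc water *Tcf7* (-1.09), which was also listed as a target, and *Tcf7l2* (-0.64) fell as well. Of 11 genes for secreted inhibitors and their partners, 4 were tested and 0 passed in DESeq2 or edgeR, with 1 at an unadjusted p under 0.05.

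Other genes of the 2 ends of the lobule were counted in the same way. Of 14 other pericentral genes, 1 rose and 1 fell with Dex on plain water, *Gstm3* (1.43, adjusted p = 1.9e-08), a glutathione transferase gene, and *Nr1i3* (-0.50, adjusted p = 4.3e-05), which encodes the nuclear receptor CAR. Of the exonic bases of *Nr1i3*, 74.9% overlap *Tomm40l* on the opposite strand, so its level is uncertain while the strand setting is not known. The median log2 fold change over the 14 genes was 0.04. On zinc water 3 of the 14 rose and 0 fell, *Gstm3* (1.45), *Slc16a10* (0.47) and *Cyp2e1* (0.33). In zinc-Dex against water-PBS 6 of the 14 rose and 0 fell, among them *Cyp2c29* (0.46), *Lhpp* (0.61) and *Cyp2e1* (0.50), beside 13.2% of all genes higher, and *Cyp2c29* was also higher in zinc-Dex than in water-Dex (0.32, adjusted p = 0.0212 in DESeq2, while 0 of the 14 passed in edgeR). Of 15 periportal genes, 4 rose and 4 fell on plain water. *Sds*, serine dehydratase, rose by 2.23 and *Asl*, of the urea cycle, by 0.65, while *Hal*, histidine ammonia-lyase, fell by 0.59 and *Cdh1*, E-cadherin, by 0.50, all on the log2 scale. On zinc water 5 of the 15 rose and 2 fell.

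**Figure D4:**
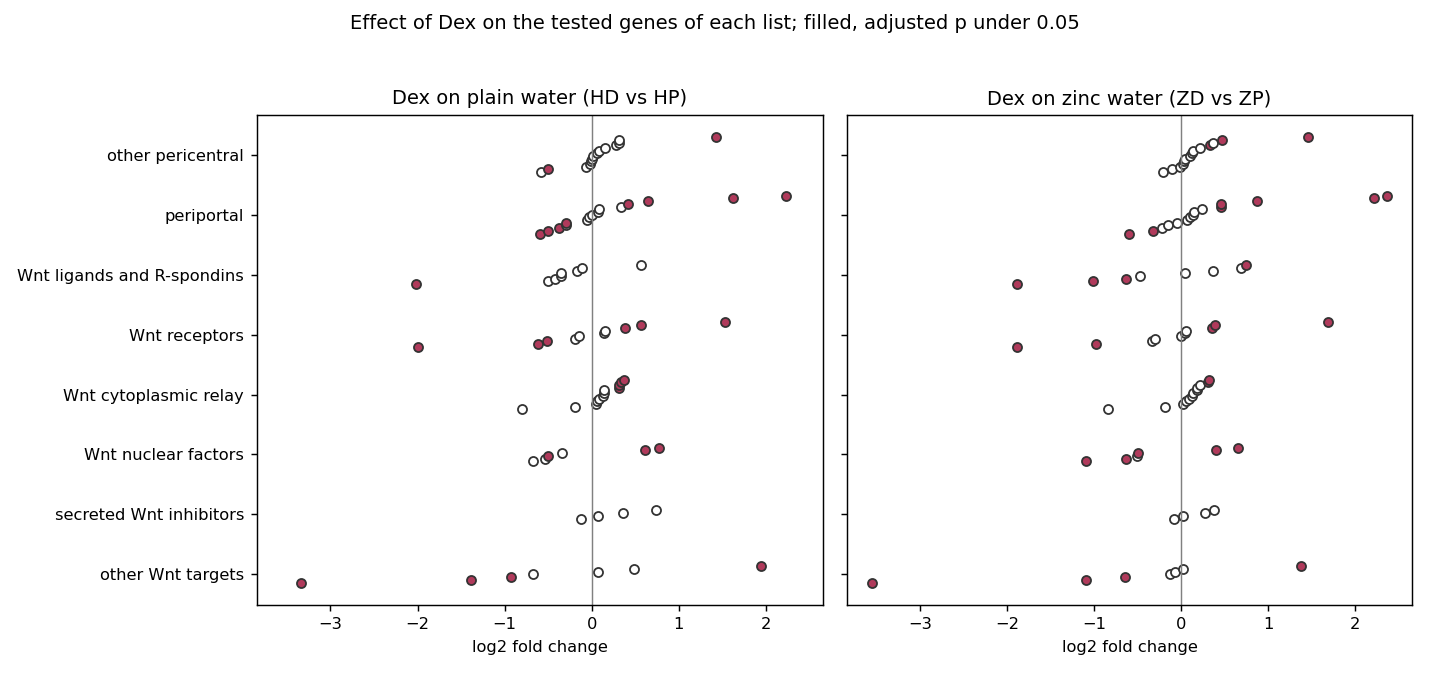
Log2 fold change by Dex (x axis) of the tested genes of each list (y axis) on plain water (left) and on zinc water (right). Each point is 1 gene, and filled points passed at an adjusted p under 0.05. The lowest point in both panels is *Sp5* (-3.34 and -3.55), and the cytoplasmic genes that passed are all above 0.

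Markers of cell types were read beside these results, and their part in them was not tested. Of 6 hepatocyte markers measured, 3 rose with Dex on plain water (*Alb* 0.30, *Apoa1* 0.59 and *Fgb* 0.34), and their summed normalized counts lay between 1190909 and 1430940 in water-PBS and between 1563663 and 1660191 in water-Dex. On zinc water the sums were 1257052 to 1414567 after PBS and 1597147 to 1713552 after Dex. The hepatocyte sum was higher in every Dex liver than in every PBS liver. Most of that sum was *Alb*, with means of 1059940 normalized counts in water-PBS and 1305427 in water-Dex. In TPM, *Alb* overlapped between PBS and Dex livers, with up to 116144 in zinc-PBS and from 114415 in zinc-Dex. Of 9 endothelial markers, *Thbd* (2.44) and *Cdh5* (0.27) rose and *Kdr* (-1.14) fell, and the sums were 4618 to 5199 and 4754 to 5150. Of 6 stellate cell markers *Pdgfrb* (-1.10) and *Lrat* (-0.72) fell, with sums of 3516 to 3715 and 3691 to 3740. Of 6 Kupffer cell and 5 cholangiocyte markers 0 passed in DESeq2 or edgeR, with 0 and 1 at an unadjusted p under 0.05. Summed lymphocyte markers were 242 to 274 in water-PBS and 178 to 220 in water-Dex, and 1 of 5 passed as lower in DESeq2 and 0 in edgeR. On zinc water these sums were 235 to 270 after PBS and 166 to 202 after Dex, and 1 of 5 passed as lower in DESeq2. Of the pancreas markers *Cpa1* and *Pnlip* were at 0 in every library, and 0 markers of pancreas, gut epithelium and red blood cells passed on plain water in DESeq2 or edgeR, with 0, 0 and 1 at an unadjusted p under 0.05. On zinc water 2 of 3 red blood cell markers rose with Dex (*Hba-a1* 0.95 and *Hbb-bs* 0.76), with sums of 622 to 774 in zinc-PBS and 1077 to 1224 in zinc-Dex, and 1 of 4 gut epithelium markers, *Vil1*, fell (-2.04, between 2 and 28 raw counts per library). Of the other lists on zinc water, 3 hepatocyte markers rose, 2 endothelial markers rose and 1 fell, 1 stellate cell marker rose and 1 fell, and 0 Kupffer cell, cholangiocyte and pancreas markers passed in DESeq2, with 0, 1 and 0 passing in edgeR and as many at an unadjusted p under 0.05.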

How the data were processed

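Total RNA of 12 livers, 3 per group, had been made into stranded TruSeq libraries and sequenced as single-end reads. Per the labels and the study's methods, the authors mapped reads to mm10 with hisat 2.0.4 and made gene counts with featureCounts, leaving out multimapping reads. The annotation release and the strand setting are not given in the sources used here. The deposited table holds raw counts, not normalized, in a column for each mouse, all of which were used. Groups came from the sample titles. Replicates differed by 6.28 to 21.3 times the sampling noise (chi-square per degree of freedom), so none was a copy of another.

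All genes were tested with DESeq2 1.42.0 (R 4.3.3) in 1 fit of 12 libraries with 1 coefficient per group. Wald p-values were adjusted by Benjamini-Hochberg over all genes, and a gene passed at an adjusted p under 0.05. Normalized counts are counts divided by the DESeq2 size factor. TPM was computed from the counts and the GENCODE M21 exonic length. An exact permutation test of 3 mice against 3 cannot give a p below 0.1, so none was run. Calls are those of this fit unless edgeR or another alternative is named. On simulated counts of 13255 genes, of which 200 changed by Dex on plain water, 91% were recovered with 16 false calls. Recovery by size of change, such as that of *Glul* or *Slc1a2*, was not tested. All 10 genes were named in every comparison. From each list of pathway genes, up to 4 per comparison that passed with the smallest adjusted p were named. Cell type markers that passed, and genes marked so in the text, were chosen once their values were known. The 10 genes and the lists were chosen with earlier results of these data known. One listed hepatocyte marker symbol matched no gene. The result of 1 further listed gene is not reported here. Alternatives were edgeR 4.0.16, TMM factors (edgeR), a filter of 10 counts in 3 libraries, a replicate block, only the libraries compared, a log2 fold change threshold of 0.8, and leaving out each library.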

Additional observations from a re-analysis of the deposited data

How the results depend on the processing

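The number of the 10 genes that passed was the same under TMM factors, edgeR, the filter on low counts and the replicate block as in the reported fit, and stayed within 1.5 times it under every alternative. With the log2 fold change threshold added, 4 passed in each of the 3 Dex comparisons, which left out *Glul* and, in zinc-Dex against water-PBS, *Slc1a2*. With the replicate block the counts were 0 for zinc with PBS, 5 for Dex on plain water, 6 for zinc-Dex against water-PBS, 0 for zinc with Dex, 5 for Dex on zinc water and 0 for the interaction. Replicate numbers did not pair the livers, since the deviations of same-numbered livers correlated between -0.172 and 0.118 (median 0.0209 over 18 pairs).

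Of 16 gene results that passed, none changed sign in 176 alternative values and 174 kept the call. The exceptions were both *Slc1a2* in zinc-Dex against water-PBS, with only the libraries compared (log2 fold change 0.30, adjusted p = 0.0523) and without zinc-Dex replicate 3 (0.22, adjusted p = 0.0862). The 44 that did not pass never passed in 534 alternative values. Of these, 55 changed sign, the largest at 0.60 on the log2 scale, and 25 had no adjusted p. *Lgr5* was the called gene that single libraries moved most, with values between -2.31 and -1.16 for Dex on zinc water (largest adjusted p = 0.0185). Depth limits *Rhbg* and *Sp5* in particular, since few reads were counted for them.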

Other observations

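Within the PBS livers, some Wnt target genes were high or low in the same mouse, and others were not. Zinc-PBS replicate 3 had the highest *Tbx3* (522 normalized counts), *Rnf43* (381), *Lgr5* (116) and *Tcf7* (153) of the 12 livers. Zinc-PBS replicate 2 had the lowest *Tbx3* (229), *Lgr5* (43.7), *Axin2* (97.9) and *Sp5* (9.62) of the 6 PBS livers. Other targets did not follow. *Axin2* (136), *Sp5* (27.5) and *Nkd1* (119) were highest in water-PBS replicate 3. *Rnf43* was lowest of the 6 PBS livers in water-PBS replicate 1 (223). Zinc-PBS replicate 2 had the highest *Tnfrsf19* (92.7) and *Myc* (75.2) of the 6 PBS livers. *Glul* was at 13986 in zinc-PBS replicate 3 and 13391 in zinc-PBS replicate 2, close to each other. This was seen in the values and was not tested.

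The genes whose levels followed *Glul* and *Axin2* most closely over the 12 libraries, by Pearson's r of log2(normalized count + 1) among the 9573 genes whose mean normalized count was 50 or more, are given as a description. The libraries fall into PBS and Dex livers, and that split is part of the likeness. For *Glul* they were *Capzb*, *Rgs16* and *Pawr*. *Capzb* went from 755 ± 35.6 normalized counts in water-PBS to 833 ± 16.6 in water-Dex and *Rgs16* from 524 ± 300 to 2201 ± 200 (SD, n = 3), so a like pattern did not mean a like size of change. For *Axin2* they were *Tbx3*, *A230050P20Rik* (293 ± 20 and 97.7 ± 16) and *Plxnd1* (463 ± 13.6 and 189 ± 11.1).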
